A study of Mus musculus with 3 samples.

Results

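The 73 heat shock protein and Dnaj genes of the mouse lung were examined, out of 22954 genes listed. They are all genes whose symbol starts with Hspa (13 genes), Hspb (10), Hspd (1), Hspe (2), Hsph (1), Hsp90 (3) or Dnaj (43), and no symbol containing -ps was among them. The rule is by name, so it also takes Hspbp1 and Hspbap1, whose products are not small heat shock proteins. The data are 3 single-cell RNA libraries from the lungs of wild-type female C57BL/6J mice, each from 1 mouse, taken 5 months after 13 Gy to the thorax. One mouse was irradiated at the conventional dose rate (CONV), one at the conventional rate after intraperitoneal AsiDNA (CONV AsiDNA), a short DNA duplex that mimics a double-strand break, and one at the ultra-high FLASH dose rate without AsiDNA (FLASH). AsiDNA was given at 100 mg/kg on each of the preceding days and at 200 mg/kg on the day of irradiation. Every mouse analysed was irradiated, and unirradiated controls were not analysed here. The study asked whether AsiDNA protects normal tissue from irradiation, and it used phosphorylation of the HSP90 protein as one readout of DNA-PK activity, so the level of the transcripts is a separate measure. With 1 mouse per condition no test is possible, and every difference below is between these 3 libraries.

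Heat shock proteins are molecular chaperones. HSP70 proteins (Hspa genes) bind exposed stretches of unfolded proteins in cycles of ATP hydrolysis that J proteins (Dnaj genes) start, HSP90 proteins finish the folding of kinases and receptors, small heat shock proteins (Hspb genes) hold unfolded proteins without ATP, and the Hspd1 and Hspe1 products form the folding chamber of mitochondria. In the cytosol many of these genes are driven by the transcription factor HSF1, which binds inverted repeats of GAA, and in the endoplasmic reticulum by factors of the unfolded protein response, which bind the ER stress element. Some members are always on, such as Hspa8 and Hsp90ab1, and others, such as Hspa1a and Hspa1b, are switched on by heat or proteotoxic stress.

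The deposited values were converted back to whole numbers, called adjusted counts here because their totals per cell vary too little for raw counts. The adjusted CPM of a class of cells is the sum for a gene per 1000000 adjusted counts of that class, and where 3 values stand in a row they are those of CONV, CONV AsiDNA and FLASH in this order. The 3′ chemistry counts transcripts at one end, so levels were not divided by gene length. The sources used here do not give how the authors adjusted the values or whether each library was adjusted on its own, and this bears on every level set across libraries below. The libraries held 6372 cells (CONV), 6983 (CONV AsiDNA) and 6267 (FLASH), with median totals of 3450, 3678 and 3621 adjusted counts per cell. Cells were placed by marker genes, and 16 classes had at least 50 cells in each library. At least 3 of a class's own markers were among its 10 leading genes, although Trbc2, a T cell receptor gene, was above 0 in 68.6% to 83.7% of ILC2-like cells, and Cyp2f2, a secretory cell gene, in 94.8% to 97.3% of ciliated-like cells. In AM-like cells (alveolar macrophages) Gpnmb was above 0 in 69.2%, 36.9% and 48.0% of cells of CONV, CONV AsiDNA and FLASH, and Krt79 in 14.1%, 49.1% and 65.8%, so CONV stood apart from both others in these genes, and their part in the AM-like values below was not tested. Pairs of libraries shared 9 to 17 cell barcodes. Fewest genes were detected in cells of CONV, with medians of 1235.5 in CONV, 1339 with AsiDNA and 1315 in FLASH. The order differed between classes. For example, CONV was lowest in B-like cells (923.5, 1058 and 1074). It was highest in ciliated-like cells (2341, 2320 and 2284) and SMC and pericyte-like cells (1979, 1717 and 1645). The part of these differences in the levels below was not tested. The class-averaged level of Gm42418 was 22739 adjusted CPM in CONV, 21593 with AsiDNA and 1732 in FLASH. That of mt-Co1 was 1488, 1654 and 3520, so both genes set FLASH apart and neither gene set CONV apart. Fewer cells of a kind within a class and less RNA per cell cannot be told apart in these sums.

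Of the 73 members, Hspb3 was listed at 0 in every cell. Hspb9 and Dnajb7 had a sum under 20 adjusted counts, and the other 70 were compared. In this way 10 members were above 0 in all 48 combinations of class and library, and 29 had a class-averaged level of at least 50 adjusted CPM.

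Promoter sequences from RefSeq (GRCm38.p6, from 250 bases before to 50 after the start) were at hand for 58 members. The following stretches are shown because they hold the HSF1 type or the ER stress type of element in members that the comparisons below turn on. Capitals mark matches to GAANNTTC or TTCNNGAA (2 units), to GAANNTTCNNGAA (3 units) and to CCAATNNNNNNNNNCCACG (ER stress element), each searched on both strands, and every 3-unit match contains 2-unit matches. All are read 5′ to 3′ on the strand of the gene, and where 30 bases on either side would reach into an annotated exon, only 5 are shown.
Hspa1a, chr17:34972223-34972290, minus strand, match 104 bases before the start: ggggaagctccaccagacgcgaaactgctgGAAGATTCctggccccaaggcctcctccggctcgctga
Hspa1b, chr17:34959305-34959372, minus strand, match 104 bases before the start: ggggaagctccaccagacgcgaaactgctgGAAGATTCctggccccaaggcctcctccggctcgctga
Hspe1, chr1:55088054-55088081, plus strand, 2 overlapping 3-unit matches from 89 bases before the start: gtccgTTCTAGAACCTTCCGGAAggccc
Hsph1, chr5:149636283-149636305, minus strand, 3-unit match 15 bases past a listed start: gcagaTTCTGGAAAGTTCtcctc
Dnaja1, chr4:40722339-40722356, plus strand, match 124 bases before the start: ctctaGAAAATTCtacga
Hspb1, chr5:135887772-135887859, plus strand, matches 117 and 97 bases before the start: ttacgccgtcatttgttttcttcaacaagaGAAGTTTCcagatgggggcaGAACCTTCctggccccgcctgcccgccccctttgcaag
Hspa5, chr2:34772020-34772048, plus strand, match 65 bases before the start: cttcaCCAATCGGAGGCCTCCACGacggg
Hsp90b1, chr10:86705633-86705661, minus strand, match 212 bases before the start: caagcCCAATCGCAAGGAGCCACGcttcg
Hsp90b1, chr10:86705528-86705556, minus strand, match 107 bases before the start, on the other strand: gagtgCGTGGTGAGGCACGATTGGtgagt
Dnajc3, chr14:118937797-118937875, plus strand, match 105 bases before the start: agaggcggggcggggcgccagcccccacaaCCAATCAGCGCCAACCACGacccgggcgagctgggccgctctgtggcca

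The 3-unit element lay before the start in 0.514% of 27025 genes and in 3 of the 58 members, Dnajb6, Hspd1 and Hspe1. Hspd1 and Hspe1 stand head to head on chromosome 1 (GENCODE M21, chr1:55077835-55088243 on the minus strand and chr1:55088132-55091307 on the plus strand), so the bases shown for Hspe1 also lie 144 bases before one of the starts that RefSeq lists for Hspd1, but past the GENCODE start of that gene and in one of its exons. Distances to a start are from RefSeq, and the stretches of Hsph1, Dnaja1 and Hspa5 also lie in exons of these genes in GENCODE. The 2-unit element lay before the start in 14.5% of genes and in 14 members. The ER stress element was found before the start of 0.130% of genes and of 3 members, Hspa5, Hsp90b1 and Dnajc3, which all encode proteins of the endoplasmic reticulum. A match describes the letters in this window only. No promoter entry was available for Hsp90aa1, Hsp90ab1 or Hspa8. The 250 bases before Hspa1a and Hspa1b are identical at 98.8% of positions, and 88.4% of the 31-base words of the Hspa1a coding sequence also occur in Hspa1b. After the stop codon the transcripts share 0% of such words, which is where 3′ tags are expected, but which part of the transcript the tags came from was not tested, so the values of each and their sum are given.

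The class with the highest level was the same in all 3 libraries for 35 of the 70 members compared, which is 50%, beside 49.5% of all genes, a share near the background. The leading class was ciliated-like cells for 13, cells of smooth muscle and pericyte type (SMC and pericyte-like) for 8 and AM-like cells for 7. How often each class led over all genes was not counted, so these numbers describe the members only. Fibroblast-like cells led for Dnajc3 and Hspa13, and 1 member each was led by AT1-like, IM-like (interstitial macrophage), EC-like (endothelial), T-like and club-like cells (Hspa4, Dnajc13, Hspa12b, Hspe1 and Dnajc5b).

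**Figure D1:**
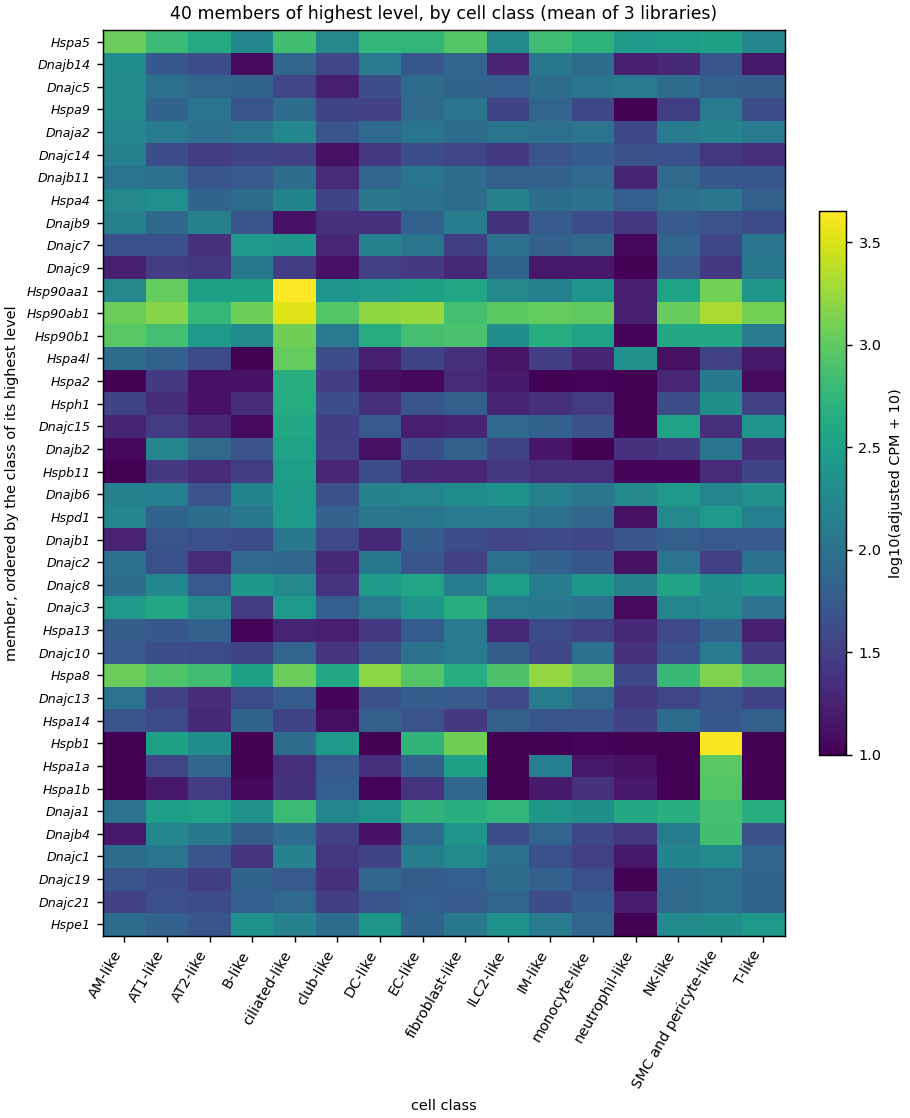
Level of the 40 members with the highest class-averaged level (rows) in the 16 cell classes (columns), as log10 of the adjusted CPM plus 10, averaged over the 3 libraries. Hspb1 is highest in SMC and pericyte-like cells, at 4265 adjusted CPM, and dark in the immune classes, while a block of members that includes Hsp90aa1, at 4477, is highest in ciliated-like cells.

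Among the small heat shock proteins, Hspb7 and Hspb6 were found mainly in muscle-type cells. Hspb7, which binds actin filaments in muscle, stood at 351 adjusted CPM in SMC and pericyte-like cells of CONV, 377 with AsiDNA and 374 in FLASH, and at 5.79 in the next class, fibroblast-like, on average. The ratio of the leading to the next class averaged 93.8. The fibroblast-like values behind it rest on 9 adjusted counts in all. The lowest of them, 2.025 in CONV AsiDNA, gave the highest ratio and raised this average, so its size is uncertain. Hspb6, a regulator of smooth muscle relaxation, gave 156, 159 and 158 in SMC and pericyte-like cells, and its ratio was 20.5. The values of both genes in these cells were close together in the 3 libraries.

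Hspb2 gave 249 adjusted CPM in SMC and pericyte-like cells of CONV, 127 in CONV AsiDNA and 103 in FLASH, from sums of 51, 35 and 21 adjusted counts, so CONV was the highest here. Hspb1, which encodes HSP27, a chaperone of the actin cytoskeleton, stood at 3602, 5077 and 4116 in those cells. It was next highest in fibroblast-like cells (1004, 976 and 1583) and EC-like cells (542, 569 and 504), and it was listed at 0 in every library in AM-like, B-like, DC-like, ILC2-like, IM-like, NK-like, neutrophil-like and T-like cells. In AT2-like cells (alveolar type 2) Hspb1 was 299 in CONV against 139 and 125, and in AT1-like cells (alveolar type 1) 190 in CONV and 204 in FLASH against 574 in CONV AsiDNA. The order of the libraries for Hspb1 therefore changed from class to class.

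Hspb8, a partner of Bag3 in autophagy, was highest on average in AT1-like cells (93.5, 111 and 69.7 adjusted CPM) and AT2-like cells (96.7, 94.7 and 55.0), and the ranges of these classes overlap. In SMC and pericyte-like cells it was 34.2, 163 and 39.4, so 1 library stood above the rest there. In EC-like cells Hspb8 was 32.2, 8.16 and 8.32, and it was above 0 in 11.0% of cells of CONV, with an exact Clopper-Pearson 95% interval of 8.00% to 14.6%, and in 2.88% (1.54% to 4.88%) and 2.90% (1.59% to 4.82%) of the others. Such intervals cover the sampling of cells only. The J proteins Dnajb4 and Dnajb5 also led in SMC and pericyte-like cells. Dnajb5 stood there at 63.4, 141 and 88.6 adjusted CPM, and at 25.9 in EC-like cells on average.

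Ciliated-like cells led for another set of members. Dnajb13, a J protein of the radial spokes of cilia, gave 201 adjusted CPM in CONV, 216 with AsiDNA and 189 in FLASH, against 15.04 in the next class on average. Hspb11, also known as IFT25 and part of the transport machinery of cilia, gave 258, 316 and 289, and Dnaja4, a cytosolic co-chaperone of HSP70, gave 220, 279 and 248. The leading class stood 11.9, 8.97 and 9.31 times above the next for these 3 genes. Hspa2, an HSP70 best known from the testis, reached 413, 451 and 468, and Dnajc12, a co-chaperone of aromatic amino acid hydroxylases, 118, 145 and 133. Hspa4l, an HSP110 nucleotide exchange factor, gave 801, 1125 and 1223 and was the one gene of this group whose next class was neutrophil-like, at 444 in CONV against 96.2 and 91.6. Apart from Hspa4l, the values of these genes in ciliated-like cells differed by less than 1.5 times between any pair of libraries.

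Among endothelial cells Hspa12b, an atypical HSP70 of blood vessels, stood at 152, 224 and 239 adjusted CPM, and the next class averaged 1.12. It was above 0 in 38.1% (33.1% to 43.2%) of EC-like cells of CONV, in 57.6% (52.9% to 62.3%) of CONV AsiDNA and in 59.6% (55.1% to 64.0%) of FLASH. Dnajc13, an endosomal J protein, led in IM-like cells at 107, 127 and 139. Other abundant members had no sharp leader. Dnajc8, a splicing-associated J protein, averaged 352 in EC-like and 340 in NK-like cells, and Dnajb6, a suppressor of protein aggregation, 276 in ciliated-like and 262 in NK-like cells.

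A caution applies to neutrophil-like cells. Hsp90ab1, which every cell is thought to use, was listed there at 2.66, 19.0 and 0 adjusted CPM, and Hspa8 at 82.4, 1.06 and 0, whereas the lowest value of Hsp90ab1 in the other 15 classes was 406, in AT2-like cells of CONV. Low values in that class are therefore given as listed and not as absence.

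Between libraries the main difference lay between CONV and the other 2. Class-averaged levels gave each class equal weight, so that the numbers of cells per class did not enter. A pair of libraries was called different for a gene where the log2 ratio of class-averaged adjusted CPM plus 10 reached 1 or -1, a scale that understates the change of low genes. Against CONV AsiDNA, 3 of the 70 members compared were at least 2-fold lower in CONV (Hsph1, Hspa1b and Hspa1a), beside 0.207% of all 17426 genes, and 0 were at least 2-fold higher, beside 0.161%. Against FLASH, 2 were at least 2-fold lower in CONV (Hsph1 and Hspa1b), beside 0.241% of all genes, and 0 were higher, beside 0.298%. Without SMC and pericyte-like cells the number of members at least 2-fold lower in CONV fell to 1, Hsph1, in either comparison. Between CONV AsiDNA and FLASH no member was that far apart in either direction, beside 0.0516% of genes higher and 0.0402% lower in CONV AsiDNA. Both comparisons of CONV rest on the same CONV library and are not independent of each other.

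Most differences were smaller than 2-fold and concerned abundant members. Among the 29 members of at least 50 adjusted CPM, the log2 ratio of CONV over CONV AsiDNA was -0.5 or less for 12, which is 41.4% of them, beside 4.36% of the 3370 genes of that level. The ratio of CONV over FLASH was -0.5 or less for 8, which is 27.6%, beside 4.39%. Ratios of 0.5 or more were found for 0 of the 29 in either comparison, beside 3.09% and 3.77% of genes. For CONV AsiDNA over FLASH, Hspa1b alone reached 0.5 or more, beside 0.534% of genes, and no member reached -0.5, beside 0.653%. This ratio of Hspa1b ranged from 0.46 to 0.92 under the alternatives of processing given below, so its call did not always hold. These thresholds were chosen after the values were seen. Without ciliated-like and SMC and pericyte-like cells, several of these members fell short of -0.5. Among them, for CONV over FLASH, were Hspd1 (-0.46), Dnaja1 (-0.30), Hsp90aa1 (-0.26) and Hspa1b (-0.21). For CONV over CONV AsiDNA they included Hspd1 (-0.42) and Hspa1a (-0.34). Both counts of lower members therefore rest in part on these classes.

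**Figure D2:**
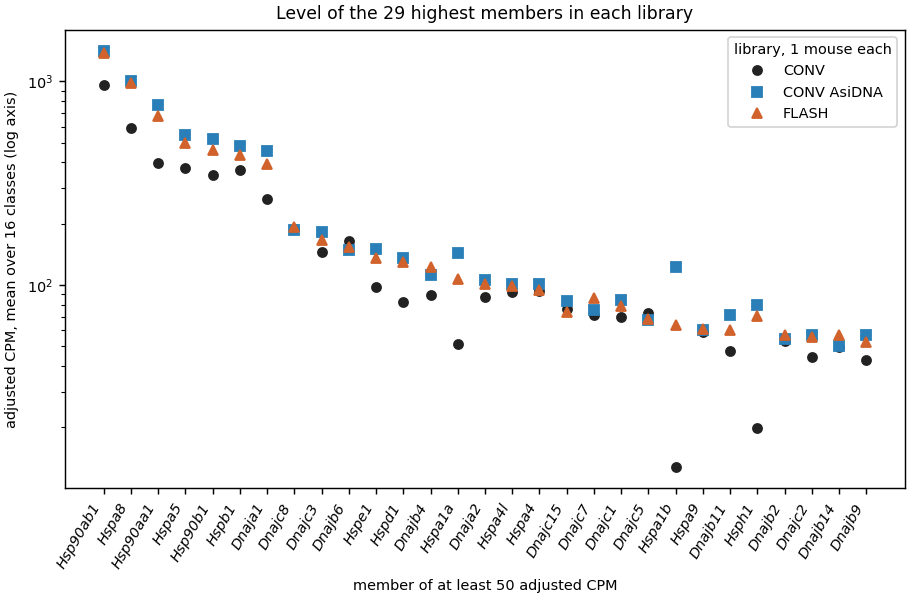
Class-averaged level (log axis, adjusted CPM) of the 29 members of at least 50 adjusted CPM in the 3 libraries, ordered by level, with 1 point per library and mouse. The CONV point lies below both others for most of the genes, farthest for Hspa1b (12.7 against 122 and 63.8) and Hsph1 (19.8 against 79.9 and 70.9), and for Dnajb6 it lies above them.

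The same direction was counted class by class. Among genes with at least 20 adjusted counts in at least 8 classes, CONV was below both other libraries in at least 75% of those classes for 8 of 49 members, which is 16.3% of them, beside 5.72% of 7400 genes. The 8 were Hspd1, Hspe1, Dnaja1, Hsph1, Hspa8, Hsp90b1, Dnaja3 and Hsp90ab1. The opposite pattern was found for 0 members, beside 3.46% of genes. Cells of a class and classes of a mouse share one library, so that these counts do not replace further mice.

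Hsp90ab1, the constitutive HSP90 gene of the cytosol, had the highest level of all members on average. The gene (chr17:45567775-45573271, minus strand) averaged 956 adjusted CPM in CONV, 1409 with AsiDNA and 1372 in FLASH, and CONV was lowest in 14 of 16 classes. In ciliated-like cells it stood at 1568, 4256 and 4097, and in AT1-like cells at 1482, 1468 and 1475, so the difference was large in the former and absent from the values of the latter. Hsp90aa1, the stress-inducible form (chr12:110690605-110702728, minus strand), averaged 397, 768 and 676, with log2 ratios of -0.93 and -0.75 for CONV over the other 2, and CONV was lowest in 10 of 15 classes and highest in 2. Without ciliated-like and SMC and pericyte-like cells the ratios were -0.51 and -0.26. Its ciliated-like values were 2243, 5767 and 5421, its club-like values 54.8, 262 and 387, and those of SMC and pericyte-like cells 717, 1633 and 1300. In T-like cells the order was another, at 272, 294 and 162, with FLASH the lowest, and in ILC2-like cells (208, 145 and 149) and IM-like cells (165, 164 and 84.1) CONV was the highest.

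Of the HSP70 genes, Hspa8, the constitutive form (chr9:40800984-40810087, plus strand), averaged 591 adjusted CPM in CONV, 1005 with AsiDNA and 978 in FLASH, and CONV was the lowest in 15 of 16 classes. The exception was the neutrophil-like class, described above. In AM-like cells it stood at 581, 1314 and 1463, in B-like cells at 182, 381 and 394, and in IM-like cells, where it was most abundant on average, at 1351, 1812 and 1789. Hsph1, an HSP110 that exchanges the nucleotide of HSP70, averaged 19.8, 79.9 and 70.9, and CONV was lowest in all 12 classes with at least 20 adjusted counts. Its log2 ratios were -1.59 and -1.44. In ciliated-like cells Hsph1 was 179, 574 and 517, in EC-like cells 13.9, 54.8 and 51.0, and in AM-like cells 5.72, 36.9 and 30.04.

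Hspa1a and Hspa1b encode the stress-inducible HSP70, and both were highest on average in SMC and pericyte-like cells. Hspa1a stood there at 205 adjusted CPM in CONV, 1488 with AsiDNA and 1118 in FLASH, and Hspa1b at 92.7, 1619 and 857. These values rest on 52, 69 and 51 cells. Hspa1a was above 0 in 40.4% (27.0% to 54.9%), 76.8% (65.1% to 86.1%) and 74.5% (60.4% to 85.7%) of them. The class-averaged log2 ratios of Hspa1a were -1.32 and -0.94 and those of Hspa1b -2.54 and -1.70, and the summed level of both genes was 64.1, 265 and 171, with log2 ratios of -1.89 and -1.29.

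Outside SMC and pericyte-like cells the order of Hspa1a did not hold. In fibroblast-like cells it was 222, 369 and 364 adjusted CPM, with CONV again lowest, but in AT2-like cells it was 86.8, 64.8 and 44.1 and in IM-like cells 150, 125 and 110, with CONV highest. CONV was the lowest in 3 and the highest in 4 of the 8 classes with at least 20 adjusted counts of Hspa1a. Without SMC and pericyte-like cells the log2 ratios were -0.32 and 0.02 for Hspa1a and -0.89 and -0.27 for Hspa1b, so that 1 member, Hsph1, stayed at least 2-fold lower in CONV in either comparison. In AM-like, ILC2-like and NK-like cells both genes were listed at 0 in all 3 libraries.

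**Figure D3:**
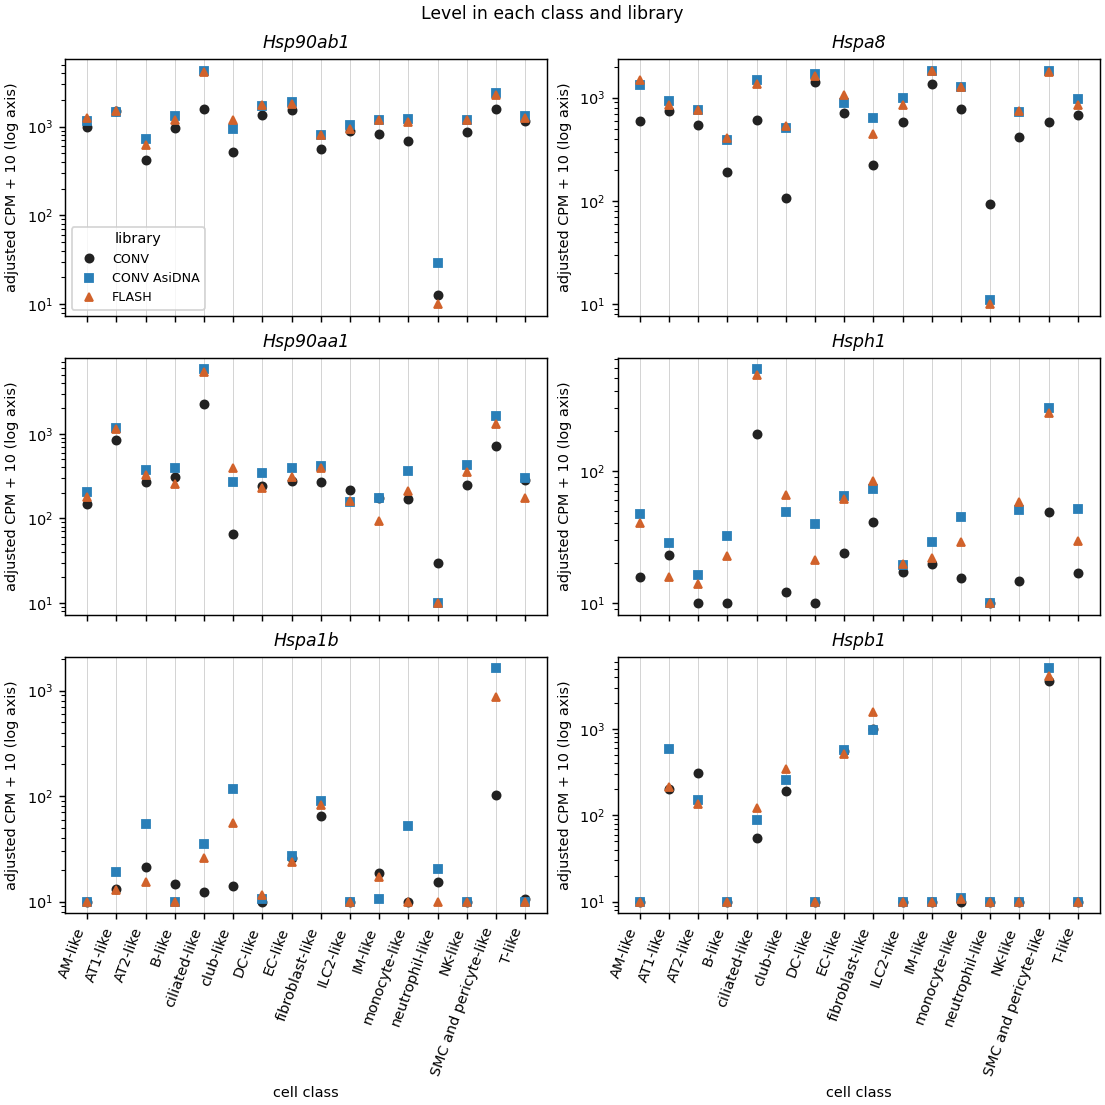
Adjusted CPM plus 10 (log axis) of 6 members in the 16 cell classes, with 1 point per library. Hspa8 and Hsph1 lie lowest in CONV in nearly all classes, that of Hsp90ab1 is wide in ciliated-like cells (1568 against 4256 and 4097), that of Hsp90aa1 in ciliated-like and club-like cells, that of Hspa1b in SMC and pericyte-like cells (92.7 against 1619 and 857), and Hspb1 has no common order.

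Among cytosolic J proteins the members differed. Dnaja1, the main class A partner of HSP70, averaged 263, 454 and 393 adjusted CPM, with log2 ratios of -0.76 and -0.56 and CONV lowest in 14 of 16 classes. Without ciliated-like and SMC and pericyte-like cells the ratios of Dnaja1 were -0.53 and -0.30. In SMC and pericyte-like cells it was 220, 1018 and 935. In ILC2-like cells the order turned, at 665, 525 and 458. Dnajb1, the classical stress-inducible J protein (HSP40), averaged 34.8, 41.6 and 38.1, with log2 ratios of -0.21 and -0.10, and CONV was lowest in 10 of 16 classes and highest in 3. Without ciliated-like and SMC and pericyte-like cells the ratios of Dnajb1 were 0.025 and 0.099. In SMC and pericyte-like cells Dnajb1 was 19.5, 79.7 and 34.5, from 33 adjusted counts in all, and in B-like cells 18.3, 36.9 and 36.1. In ciliated-like cells Dnajb1 was 57.8, 118 and 137, and in AT1-like cells CONV was the highest, at 74.1, 32.4 and 8.36, from 33 as well. Dnajb6, which has a 3-unit element before its start, was 164, 148 and 154, with CONV the highest in 11 of 16 classes.

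The list of cytosolic chaperones of the HSF1 response held 12 members. All 12 were below 0 in the class-averaged log2 ratio of CONV over CONV AsiDNA, with a median of -0.66, and 11 of 12 in that of CONV over FLASH, with a median of -0.54, beside 9065 and 8573 of all 17426 genes. Without SMC and pericyte-like cells the medians were -0.43 and -0.29, and without the classes under 100 cells in a library, which hold them, -0.29 and -0.12. The medians over all genes compared were -0.01 and 0.00, and over the 3370 genes of at least 50 adjusted CPM -0.03 and -0.02. CONV AsiDNA over FLASH gave a median of 0.14, with 11 of 12 above 0. The summed level of the list was lowest in CONV in 15 of 16 classes, as was that of all members, which include this list. The sums of the endoplasmic reticulum and mitochondrial lists were each lowest in CONV in 12 of 16. How often this holds for lists of other genes at large was not counted. In ciliated-like cells the sums of the cytosolic list were 6087, 14614 and 13963 adjusted CPM and in SMC and pericyte-like cells 7457, 16243 and 13599, while in ILC2-like cells they were close, at 2445, 2732 and 2460. Neutrophil-like cells had the opposite order. Sums follow the most abundant members, and the median ratio of the members differed in some classes. Over FLASH it was above 0 in AT2-like (0.47), ILC2-like (0.19), IM-like (0.16), EC-like (0.12) and neutrophil-like cells (1.23). Over CONV AsiDNA it was above 0 in ILC2-like (0.41) and neutrophil-like cells (0.75). In the other classes these medians were below 0. Single members also departed from their class-averaged ratio. Among classes with at least 20 adjusted counts, CONV was lowest in 4 and highest in 9 of 15 for Dnajb4. For Hspa4l it was lowest in 4 and highest in 4 of 10.

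**Figure D4:**
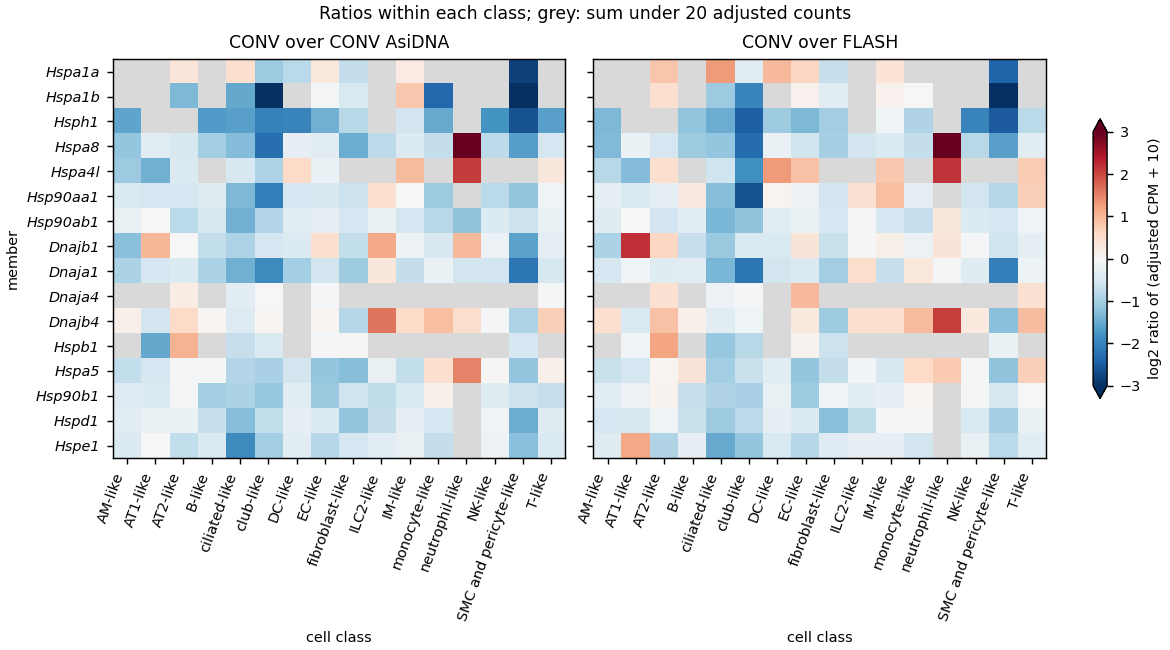
Log2 ratio of adjusted CPM plus 10 for CONV over CONV AsiDNA (left) and CONV over FLASH (right) in each class, for the 12 cytosolic members of the HSF1 list and for Hspa5, Hsp90b1, Hspd1 and Hspe1, with grey where a gene had a sum under 20 adjusted counts. Blue, lower in CONV, fills most of the rows of Hsph1, Hspa8, Dnaja1 and Hspd1 and is deepest in club-like, SMC and pericyte-like and ciliated-like cells, and red stands out in neutrophil-like cells and in parts of the rows of Hspa4l and Dnajb4.

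In the endoplasmic reticulum, Hspa5 encodes BiP, the HSP70 of that compartment, and averaged 377, 544 and 496 adjusted CPM, with CONV lowest in 10 of 16 classes and highest in 3. AM-like cells led in all libraries, at 782, 1315 and 1247. In EC-like cells it was 298, 674 and 673, and it was above 0 in 50.1% (44.9% to 55.3%), 74.9% (70.7% to 78.9%) and 69.8% (65.5% to 73.8%) of them. In monocyte-like cells CONV was the highest, at 638 against 454 and 415, as it was in neutrophil-like cells (434, 149 and 247) and T-like cells (196, 177 and 116). Hsp90b1 (GRP94), the HSP90 of the compartment, averaged 348, 524 and 463 and was lowest in CONV in 13 of 15 classes with at least 20 adjusted counts. Dnajc3, a J protein that also inhibits the kinase PERK, was 146, 183 and 166. All 3 genes carry the ER stress element shown above. Of the 10 members of the list, 9 were below 0 for CONV over CONV AsiDNA (median -0.32) and 8 for CONV over FLASH (median -0.17), beside 9065 and 8573 of all 17426 genes. Dnajc10 was above 0 in both.

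In mitochondria, Hspd1 (HSP60) averaged 82.7, 137 and 130 adjusted CPM and Hspe1 (HSP10), its lid, 98.3, 150 and 136. Without ciliated-like and SMC and pericyte-like cells the log2 ratios of Hspd1, -0.66 and -0.59 over all classes, were -0.42 and -0.46. Hspd1 was lowest in CONV in all 15 classes with at least 20 adjusted counts and Hspe1 in 14 of 15. Ciliated-like cells gave 136, 343 and 297 for Hspd1 and 48.9, 211 and 159 for Hspe1. Hspa9, the mitochondrial HSP70, did not share this, at 58.9, 60.3 and 61.1. The 8 members of the mitochondrial list had medians of -0.12 and -0.11, with 6 and 5 below 0, beside 9065 and 8573 of all 17426 genes. Without the classes under 100 cells in a library the medians were -0.20 and -0.13. Without ciliated-like and SMC and pericyte-like cells they were -0.12 and -0.066. The pattern therefore lay with the chaperonin pair and Dnaja3 (4.27, 12.01 and 9.38) and not with the whole list. Dnajc30 was slightly higher in CONV, at 19.9, 16.1 and 17.0.

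In the other lists the members differed in direction. Small heat shock proteins had 5 members compared and medians of -0.06 and 0.10, with 4 and 2 below 0, and Hspb2 was the member farthest above 0 in both comparisons of CONV (21.9, 11.6 and 10.8 adjusted CPM, log2 ratios of 0.56 and 0.62). These values rest on small classes. Without the classes under 100 cells in a library the ratios of Hspb2 were -0.035 and 0.030, and the medians of the list 0.14 and 0.24. For J proteins of membrane traffic the 4 members had medians of 0.06 and -0.03, with 1 and 3 below 0, and without those classes the medians were -0.0062 and -0.052. Nuclear and ribosomal J proteins, 5 in number, had medians of -0.19 and -0.14, with 3 and 4 below 0. Under the alternatives of processing given below, these 2 medians ranged from -0.24 to -0.10 and from -0.18 to -0.048. Among these J proteins Dnajc17, linked to splicing, was higher in CONV (14.0, 6.95 and 9.07) and Dnajc21, of ribosome assembly, lower (39.2, 46.0 and 54.0). In CONV AsiDNA over FLASH the farthest members were Hspa1b (log2 ratio 0.84), Hspb8 (0.51, and 0.24 without SMC and pericyte-like cells) and Hspa1a (0.38) above 0 and Hspbap1 (-0.30), Dnajc13 (-0.20) and Dnajc21 (-0.19) below. Over all 70 members compared, 52 were below 0 for CONV over CONV AsiDNA (median -0.12) and 47 for CONV over FLASH (median -0.08), beside 9065 and 8573 of all 17426 genes.

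**Figure D5:**
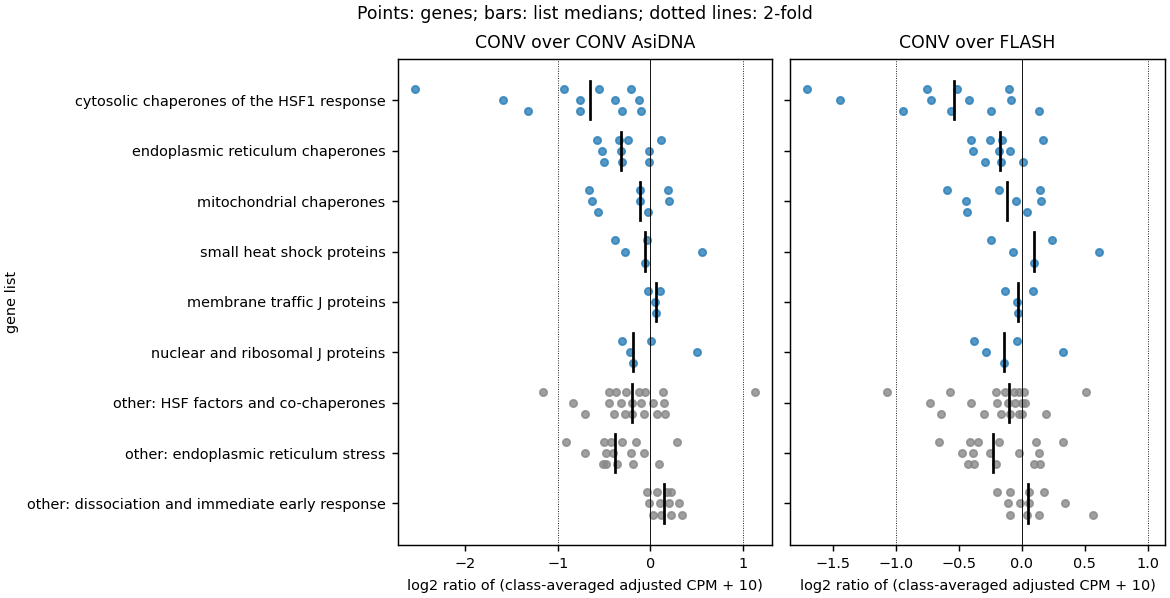
Log2 ratio of class-averaged adjusted CPM plus 10 for each gene of the 6 lists of members (blue) and the 3 lists of other genes (grey), with the list median as a black bar and 2-fold limits dotted. The cytosolic HSF1 list lies farthest to the left, with medians of -0.66 and -0.54, and the immediate early list lies near 0, with medians of 0.15 and 0.05.

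Other genes of the same pathways were read from fixed lists. Of 22 HSF factors and co-chaperones, 16 were below 0 in each comparison of CONV, with medians of -0.20 and -0.10. Chordc1, an HSP90 co-chaperone, was 24.2, 66.5 and 61.8 adjusted CPM, and Stip1 (HOP), which joins HSP70 to HSP90, 32.3, 65.6 and 59.8. The level of Hsf1 itself was 18.6, 19.8 and 18.9. Fkbp5, an HSP90 partner induced by glucocorticoids, went the other way, at 144, 60.3 and 98.0. Of 16 genes of endoplasmic reticulum stress, 14 were below 0 against CONV AsiDNA (median -0.38) and 11 against FLASH (median -0.23). Beside these counts, 9065 and 8573 of all 17426 genes were below 0. Of 12 immediate early genes, which respond to tissue dissociation, 2 and 5 were below 0, with medians of 0.15 and 0.05, and Fos stood at 1548, 1591 and 1775. Within classes they differed more. Their summed level was 13666, 5069 and 6774 adjusted CPM in EC-like cells and 5665, 3042 and 2554 in AT1-like cells, with CONV highest, and 13372, 19748 and 21921 in fibroblast-like cells, with CONV lowest. In ciliated-like cells it was 6172, 3706 and 6222, and in SMC and pericyte-like cells 10322, 10365 and 16277. Their part in the chaperone differences was not tested.

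Within single classes the same 2-fold rule was applied to CONV against both other libraries at once, in 6 classes chosen after the values were seen. In ciliated-like cells 8 of 59 members with at least 20 adjusted counts were lower in CONV (Hspd1, Hspe1, Dnaja1, Hsph1, Hspa8, Hsp90aa1, Hspa1b and Hsp90ab1), beside 0.4% of genes, and 0 were higher, beside 0.715%. In SMC and pericyte-like cells 7 of 41 were lower (Hspd1, Hspa5, Dnaja1, Hsph1, Hspa8, Hspa1b and Hspa1a), beside 3.39%, and 0 higher, beside 3.5%. Fibroblast-like cells had 4 of 46 lower (Hspd1, Dnaja1, Dnajb9 and Dnaja3), beside 2.44%, and 0 higher, beside 2.48%.

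In EC-like cells 3 of 58 members were lower in CONV (Hspa5, Hsph1 and Hsp90b1), beside 2.1% of genes, and Hspb8 was higher, beside 2.55%. AM-like cells had 3 of 48 lower (Hsph1, Hspa8 and Dnajb9), beside 2.04%, and 0 higher, beside 1.63%. In T-like cells no member was 2-fold apart in either direction, beside 0.366% of genes lower and 0.482% higher. The members called lower were 13.6% of those counted in ciliated-like cells and 17.1% in SMC and pericyte-like cells, where the background was higher. In the latter Acta2 was above 0 in every cell of each library and the pericyte marker Cspg4 in 67.3%, 53.6% and 66.7%, and the part of that difference in the chaperone values was not tested.

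Shares of cells above 0 were also read after each cell was thinned to 1000 adjusted counts, which no cell of these classes fell short of. The thinned values were already adjusted by the authors, so thinning cannot correct for raw depth or for that adjustment. Hsph1 was above 0 in 54.2%, 89.9% and 78.9% of ciliated-like cells as deposited and in 17.8% (13.7% to 22.7%), 41.9% (37.0% to 46.8%) and 40.1% (34.3% to 46.2%) after thinning. For Hspa8 in B-like cells the thinned shares were 13.5% (11.7% to 15.5%), 25.8% (23.6% to 28.0%) and 25.8% (23.3% to 28.4%), and for Hspa5 in EC-like cells 24.9% (20.6% to 29.6%), 40.4% (35.8% to 45.0%) and 40.99% (36.6% to 45.5%). The interval of CONV lay below those of both others for these 3 sets and for Hspa1a in SMC and pericyte-like cells. How often other genes of these classes do so was not counted. The intervals cover the sampling of cells within each mouse only, and they narrow in large classes. In the other 4 of the 8 sets read, the interval of CONV overlapped another. For Hspa1b in SMC and pericyte-like cells the thinned shares were 9.62% (3.20% to 21.0%), 30.4% (19.9% to 42.7%) and 35.3% (22.4% to 49.9%), for Hsp90aa1 in ciliated-like cells 87.9% (83.6% to 91.4%), 98.0% (96.2% to 99.1%) and 92.1% (88.3% to 94.99%), and for Dnaja1 in T-like cells 28.0% (25.3% to 30.8%), 39.5% (36.1% to 43.1%) and 32.3% (29.4% to 35.3%). For Hsp90aa1 in T-like cells the thinned shares were 20.4% (18.0% to 23.0%), 21.8% (19.0% to 24.9%) and 11.4% (9.49% to 13.6%), with FLASH the lowest.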

How the data were processed

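The authors prepared 10x Genomics 3′ libraries, and the submitters' processing notes name Cell Ranger 6.0.0 and mm10, and the study R and Seurat. The deposited values are on a natural log scale, and once exponentiated and lowered by 1 they lie within 1e-06 of whole numbers. As totals per cell have a narrow range, no count model was used, and the sources used here give neither filters nor adjustment. Cells with under 200 genes above 0 or over 20% mitochondrial values were left out, which removed 1 cell of CONV and 2 of CONV AsiDNA. A cell took the class whose markers had the highest mean z-score (values scaled to 10000, log-transformed, scores capped at 5), with at least 3 markers above 0 and a lead of 0.25 over any other class. No doublet caller was run. The lead leaves cells with markers of several classes ungated, but doublets may remain.

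Sums of adjusted counts gave adjusted CPM, averaged over 16 classes of at least 50 cells per library. Genes with a sum of at least 20 were compared for 3 pairs of libraries, on a log2 scale with 10 added. No p-value was computed. The members and lists were chosen with earlier results of these data known. Named genes were the 12 members of highest level, the 3 farthest above and below for each pair, up to 12 with the largest ratio of leading to next class (the same class leading in all libraries, with at least 10% of its cells above 0 in each), Hspa1a, Hspa1b, Dnajb1, Hsp90aa1, Hsp90ab1, Hspa5 and Hspb1, and members of groups of at most 5 that a count rests on. Genes outside this rule that are named, such as Hspa9 and Dnajb4, were chosen after their values were seen. The ratio was tested on simulated data. Not used were 4 tables whose gene identifiers are not mouse symbols. They hold 12 columns that belong to no sample here, and comparisons made by the authors. Gene positions are from GENCODE M21. Software was numpy 2.4.6, pandas 2.3.3, scipy 1.17.1, matplotlib 3.10.9 and Python 3.11.15.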

Additional observations from a re-analysis of the deposited data

How the results depend on the processing

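Each condition is 1 mouse, so the values describe these libraries and neither the spread between mice nor a test is available. No paired analysis was possible because each condition is 1 library. Leaving out classes under 100 cells in a library, which removes SMC and pericyte-like cells among others, lowered the number of members at least 2-fold lower in CONV to 1 against CONV AsiDNA and to 1 against FLASH, and turned the log2 ratio of Hspa1a over CONV AsiDNA to 0.17 and that of Hspa1b over FLASH to 0.049. The ratio of Hspa1a over FLASH was then 0.56, and that of Hspa1b over CONV AsiDNA -0.41. Leaving out SMC and pericyte-like cells alone, or these and ciliated-like cells, both chosen after seeing the data, also gave 1 and 1. Hsph1 kept log2 ratios of -1.96 to -1.21 and -1.79 to -1.04 under all alternatives, and Hspa8 -0.77 to -0.61 and -0.73 to -0.59, while the medians of the cytosolic HSF1 list ranged from -0.66 to -0.29 and from -0.62 to -0.12, nearest to 0 without the classes under 100 cells. The stricter gate, the other minimum sums, the 500-gene limit, both other scalings, the mean of the cells' own CPM and leaving out AM-like and B-like or neutrophil-like cells kept all these counts within 1.5 times, and adding 1 in place of 10 did so too and moved Hspa1a over FLASH to -1.05. The number of members with the same leading class ranged from 31 to 38.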

Other observations

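Some cells belonged to classes with under 50 cells in a library and entered no comparison. Mesothelial-like cells, the lining of the lung surface, numbered 22, 45 and 38 (CONV, CONV AsiDNA and FLASH), and their Hspb1 level was 2713, 1914 and 1478 adjusted CPM. Their Hspa8 level was 410, 817 and 673 and their Hspa1b level 149, 91.4 and 23.0. Mast cell and basophil-like cells numbered 113, 78 and 28, and Hspb1 was listed at 0 in each library. Hspa8 gave 465, 933 and 755 in those cells, Hsph1 5.70, 21.7 and 21.9, and Hsp90aa1 507, 408 and 153. Cells that met no gate gave 7.87, 32.9 and 29.9 for Hsph1 and 728, 1098 and 1137 for Hspa8.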
